A study of Homo sapiens with 6 samples.

Results

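The genes of cholesterol synthesis and uptake were examined in HCT116, a cell line from a human colon carcinoma. The cells had received pcYY2, a plasmid that overexpresses YY2, or pcCon, the control plasmid. A fixed list of 28 gene names was matched to the gene_name of the table of 50868 genes, and each of the 28 was found once. They are 7 enzymes of the mevalonate pathway, 12 enzymes of squalene and sterol synthesis, 5 genes of SREBP2 and its regulators, and 4 genes of sterol transport and storage. RNA was sequenced from 3 pcCon and 3 pcYY2 samples, all of the same cell line, and the labels do not say whether they came from separate cultures, so that p values measure the spread between these samples. The plasmids were introduced by transfection, and the share of cells that took them up is not given in the sources used here. In such bulk RNA, fewer cells of a type and less RNA per cell cannot be told apart.

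Cells make cholesterol from acetyl-CoA through mevalonate, squalene and lanosterol. When sterols in the endoplasmic reticulum are low, SCAP carries the transcription factor SREBP2 (gene SREBF2) to the Golgi, where the proteases S1P (gene MBTPS1) and S2P release its active part, which then switches on the genes of the whole pathway. When sterols are plentiful, INSIG proteins hold SCAP back, and the pathway is turned down.

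Between 15158360 and 29572882 reads were counted per sample. YY2 (FPKM, a read count scaled by gene length and sequencing depth) was 2.22, 2.52 and 1.73 in the pcCon samples and 11.6, 11.1 and 11.0 in the pcYY2 samples. On the log2 scale it was higher by 2.39 with pcYY2 (SE 0.137, edgeR quasi-likelihood, Benjamini-Hochberg adjusted p = 0.00107). Reads of the plasmid and of the YY2 locus cannot be told apart. Of 6 markers of colon epithelium, 5 were at an FPKM of 1 or more in every sample, whereas VIL1 was at or near 0. Of 8 markers of other cell types only COL1A1 was at 1 or more, with summed values of 2.23 to 2.47 in pcCon and 2.25 to 3.68 in pcYY2. KRT8 (log2 fold change 0.67, adjusted p = 0.0117) and KRT19 (0.60, adjusted p = 0.0021) rose among the epithelial markers, whose sum was 297 to 309 in pcCon and 389 to 424 in pcYY2. The part of this shift in the values below was not tested.

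Expression was compared as pcYY2 against pcCon over the 12015 genes whose FPKM averaged 1 or more, and all 28 genes of the list passed this filter, with between 158 (HSD17B7) and 7085 (SREBF2) reads per sample. A gene was called where its adjusted p did not exceed 0.05. IDI1, FDPS, LSS and MSMO1, all enzymes of the pathway, rose by 20.5% to 35.1%, and no gene of the list fell. Thus 4 of 28 genes rose, against 4.52% of all tested genes, and 0 of 28 fell, against 4.85%. At an unadjusted p under 0.05, the number was 14 higher, against 14.4% of all tested genes, and 2 lower, against 14.5%. Both lower genes, MBTPS1 and INSIG2, belong to the regulators of SREBP2. The list was written with earlier results of these data known, so these counts are a description.

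The changes were small and mostly of one sign. The log2 fold change was above 0 in 24 of 28 genes (85.7%), compared with 50.3% of all tested genes, and its median was 0.25, compared with 0.002 over all tested genes. Among the 19 enzymes of cholesterol synthesis it was above 0 in 18, with a median of 0.27, and the exception was LBR. Among the other 9 genes, of regulation, transport and storage, it was above 0 in 6, with a median of 0.05. In 14 genes every pcYY2 sample lay above every pcCon sample, which was so for 15.9% of tested genes, and in 1 gene, INSIG2, every pcYY2 sample lay below, which was so for 19.9%. The smallest two-sided p of the exact permutation test is 0.1 at 3 samples a group, and all 15 of these genes had it. The 10 genes that lay above without being called had log2 fold changes from 0.20 to 0.71 and adjusted p from 0.0529 to 0.246.

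**Figure D1:**
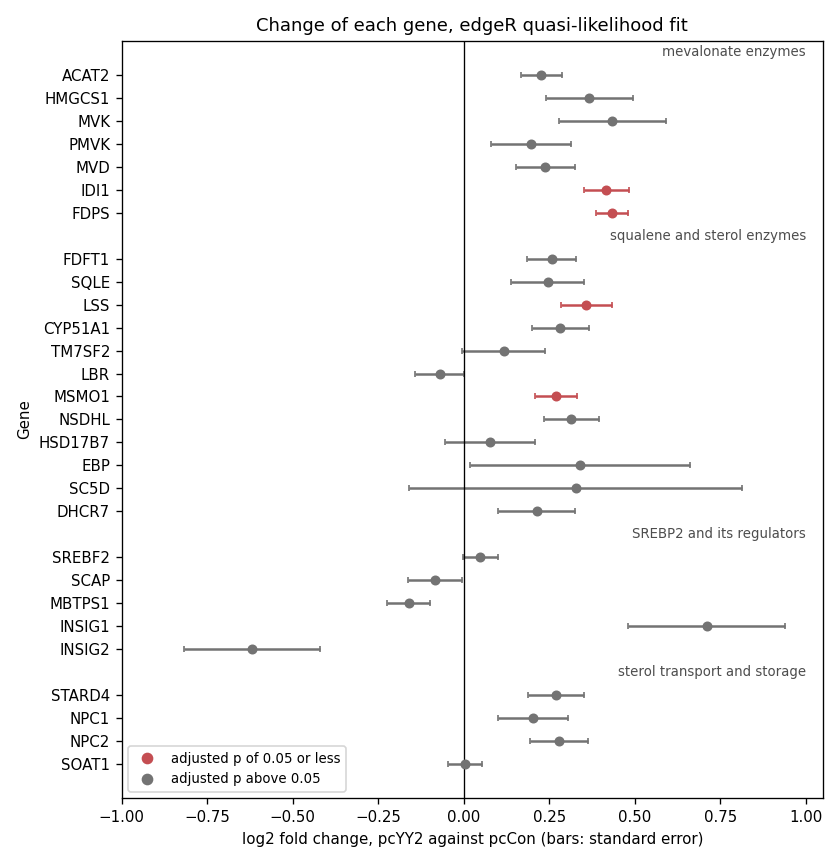
Log2 fold change of each of the 28 genes, pcYY2 against pcCon, from the edgeR quasi-likelihood fit (x axis), with bars of 1 standard error and the genes grouped by role (y axis). Red points mark the 4 genes with an adjusted p of 0.05 or less, and 24 of the 28 points lie to the right of 0.

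In pcCon the deposited FPKM differed strongly along the pathway. The length by which each gene was scaled is not given in the sources used here. For TM7SF2 the counts and FPKM imply a length above that of its locus (chromosome 11 from 65111845 to 65116384). The order below is therefore that of the deposited FPKM and may differ from the order of transcript amounts. LBR had the highest mean FPKM (25.7 ± 0.168, SD, n = 3), followed by CYP51A1 (22.3 ± 1.76), and TM7SF2 the lowest (1.14 ± 0.0785). After CYP51A1 came IDI1 (17.4), SREBF2 (17.2) and SQLE (16.9), which overlapped in their samples. Of the 27 pairs of neighbours in this order, 18 overlapped and 9 did not. LBR and TM7SF2 both encode a C14 sterol reductase. The FPKM of TM7SF2 relative to that of LBR was 0.0423, 0.0435 and 0.0476 in pcCon and 0.0526, 0.0601 and 0.0406 in pcYY2, and the groups overlapped (exact permutation p = 0.4, two-sided). This ratio compares the groups and does not give the relative amount of the 2 transcripts. Mean reads over the samples were 272.3 for TM7SF2 and 4174.8 for LBR.

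**Figure D2:**
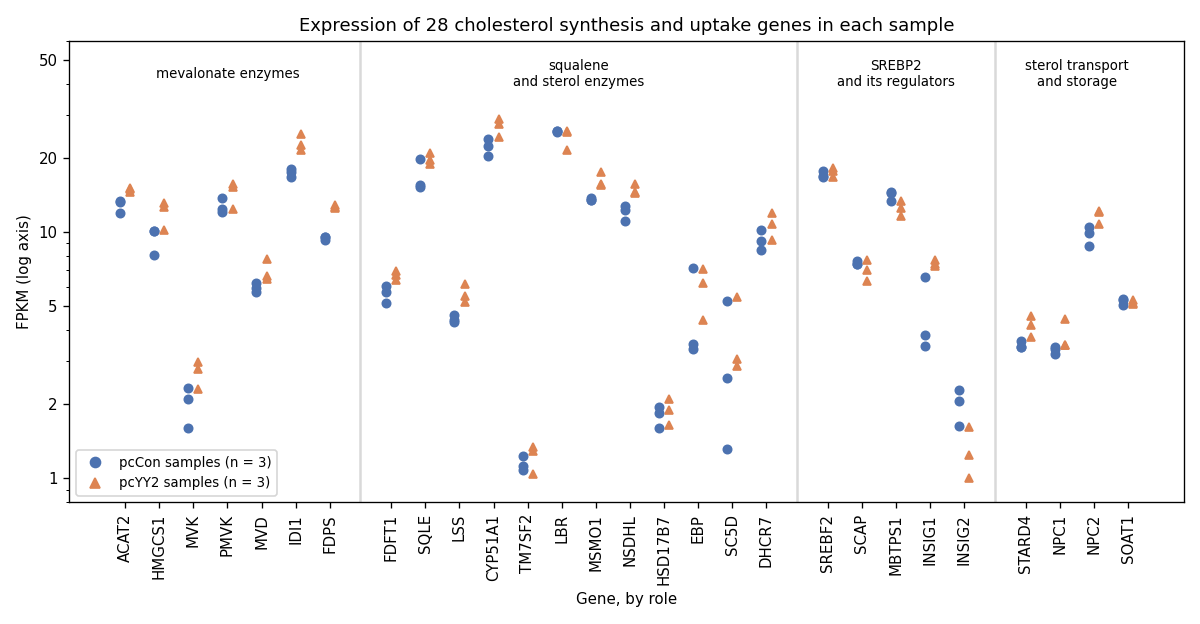
FPKM (y axis, log scale) of the 28 genes (x axis, by role) in each of the 3 pcCon samples (circles) and 3 pcYY2 samples (triangles). The deposited FPKM runs from about 1 for TM7SF2 to 25.7 for LBR in pcCon, and the distance between groups is small beside the distance between genes.

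Promoters were read to see what the genes share in sequence. RefSeq (GRCh38.p14) held a window of 250 bases before to 50 after the start for 25 of the 28 genes, all except ACAT2, FDFT1 and SQLE. These were searched on both strands for CCAAT, the box bound by NF-Y, a common partner of SREBPs, for CACNCCAC, a form of the sterol regulatory element, for GGGCGG, the box bound by SP1, and for CGCCATNTT, the motif that YY1 and YY2 share. CCAAT was found in 17 of 25 promoters (68.0%), compared with 37.0% of the 8181 tested genes with a window, and in 12 of 16 promoters of synthesis enzymes. At least 2 such boxes were in 11 of 25 (44%), compared with 14.2%. MVK and NSDHL had 5 each, of which a pair in NSDHL overlaps (matches to opposite strands that share bases), and MSMO1 had 4. CACNCCAC was in 3 of 25 (12%, tested genes with a window 5.5%), namely INSIG1, SC5D and SREBF2. GGGCGG, whose matches may overlap each other, was in 22 (88.0%, tested genes with a window 73.1%). CGCCATNTT was in 2 (8.0%, tested genes with a window 8.0%), namely EBP and SREBF2. A match shows only that the letters are present. Other forms of the sterol regulatory element were not searched, so a window without CACNCCAC may still hold one. The RefSeq start lay farthest, in bases, from the start of the gene in the table for SCAP (1185), IDI1 (7534), DHCR7 (4475) and CYP51A1 (8475).

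Stretches are shown for 3 of the 4 genes that rose, for the factor SREBF2, and for INSIG1 and INSIG2, whose fold changes had opposite signs without passing the test. IDI1, the other gene that rose, is not shown because its RefSeq start lies far from the start in the table, and its window held no CCAAT box. Each is read 5′ to 3′ on the strand of the gene, with CCAAT (or ATTGG, the same box on the other strand) and CACNCCAC (or its complement) in capitals. FDPS, chr1:155308686-155308757 (plus strand), holds 2 boxes in this stretch. LSS, chr21:46228815-46228934 (minus strand), holds 1 box ahead of a row of SP1 boxes. MSMO1, chr4:165327479-165327632 (plus strand), holds 3.
FDPS: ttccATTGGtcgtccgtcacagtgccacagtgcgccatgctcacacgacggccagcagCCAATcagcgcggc
LSS: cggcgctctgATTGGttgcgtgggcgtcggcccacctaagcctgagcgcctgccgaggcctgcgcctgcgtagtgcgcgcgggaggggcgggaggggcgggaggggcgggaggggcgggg
MSMO1: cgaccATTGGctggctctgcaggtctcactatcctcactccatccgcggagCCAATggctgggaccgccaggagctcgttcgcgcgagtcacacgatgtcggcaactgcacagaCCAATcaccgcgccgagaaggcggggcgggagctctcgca

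SREBF2, chr22:41832965-41833088 (plus strand), has CACNCCAC ahead of a CCAAT box. INSIG1, chr7:155297663-155297785 (plus strand), has both as well, each on the other strand. INSIG2, chr2:118088371-118088461 (plus strand), has neither.
SREBF2: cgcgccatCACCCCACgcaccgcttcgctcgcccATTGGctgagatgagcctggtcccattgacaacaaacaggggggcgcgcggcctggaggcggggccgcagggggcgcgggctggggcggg
INSIG1: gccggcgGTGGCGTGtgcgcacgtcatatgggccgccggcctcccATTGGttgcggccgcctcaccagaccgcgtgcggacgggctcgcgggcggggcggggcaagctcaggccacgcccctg
INSIG2: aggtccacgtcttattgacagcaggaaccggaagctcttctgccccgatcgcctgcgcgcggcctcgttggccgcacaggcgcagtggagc

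Among the 7 mevalonate enzymes, IDI1 and FDPS rose, and the log2 fold change was above 0 in all 7, with a median of 0.37. FDPS (ENSG00000160752, GRCh38 chromosome 1 from 155308748 to 155320666) makes farnesyl pyrophosphate, the last intermediate common to sterols and other isoprenoids. Its FPKM was 9.54, 9.57 and 9.31 in pcCon and 12.6, 12.9 and 12.5 in pcYY2. The groups were far apart and the spread within pcYY2, a coefficient of variation of 1.53%, was the lowest of the list in this group. The log2 difference was 0.43 (SE 0.0458, adjusted p = 0.00552, edgeR), and FDPS was the only gene of the list that passed in each of the 6 fits that left out a sample (adjusted p 0.0166 to 0.0294). With the replicate number as a block its adjusted p was 0.0503. Rows of 8 FDPS pseudogenes in the table held 0.34% as many reads as FDPS.

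IDI1 (ENSG00000067064, chromosome 10 from 1039908 to 1049170) interconverts the 5-carbon building blocks of isoprenoids. Its FPKM was 16.7, 18.0 and 17.5 in pcCon and 24.9, 21.7 and 22.5 in pcYY2. All pcYY2 samples were higher, with pcYY2 sample 1 the highest. The log2 difference was 0.42 (SE 0.0662, adjusted p = 0.0159). The adjusted p was 0.0609 without pcCon sample 1, 0.0534 without pcCon sample 2 and 0.0581 without pcCon sample 3, and it passed without each pcYY2 sample (0.0288 to 0.0492).

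The other mevalonate enzymes did not pass. ACAT2, which joins 2 molecules of acetyl-CoA, had an FPKM of 11.96, 13.4 and 13.2 in pcCon and 14.9, 14.6 and 15.1 in pcYY2, with no overlap (log2 fold change 0.23, SE 0.06, adjusted p = 0.059). HMGCS1, which makes HMG-CoA, had 8.06, 10.2 and 10.1 in pcCon and 12.7, 13.2 and 10.2 in pcYY2 (0.37, SE 0.127, adjusted p = 0.114). Its lowest pcYY2 sample, number 3, lay only just above the highest pcCon sample. MVK, the mevalonate kinase, had 1.61, 2.09 and 2.32 in pcCon and 2.97, 2.79 and 2.30 in pcYY2, and these overlapped (0.43, SE 0.156, adjusted p = 0.124). PMVK, the next kinase, overlapped too (0.20, adjusted p = 0.31). MVD, which forms isopentenyl pyrophosphate, did not overlap (0.24, adjusted p = 0.125). ACAT2 shares 17.2% of its exon bases with TCP1 on the opposite strand, and whether reads were counted by strand is not given in the sources used here.

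Among the 12 enzymes of squalene and sterol synthesis, LSS and MSMO1 rose, and the log2 fold change was above 0 in 11, with a median of 0.26. LSS (ENSG00000160285, chromosome 21 from 46188141 to 46228824) closes squalene epoxide into lanosterol, the first sterol of the pathway. Its FPKM was 4.60, 4.41 and 4.30 in pcCon and 5.23, 6.16 and 5.50 in pcYY2. Each pcYY2 sample was higher than each pcCon sample. The log2 difference was 0.36 (SE 0.0747, adjusted p = 0.0333). Without pcYY2 sample 1 LSS passed (0.0363), but not without pcYY2 sample 2 (0.0526) or 3 (0.0828) or without pcCon sample 1 (0.0777), 2 (0.104) or 3 (0.104), and its adjusted p was 0.0505 with limma on log2(FPKM + 1).

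MSMO1 (ENSG00000052802, chromosome 4 from 165327623 to 165343160) removes the methyl groups at carbon 4 of the sterol together with NSDHL and HSD17B7. Its FPKM was 13.6, 13.5 and 13.7 in pcCon and 17.5, 15.5 and 15.7 in pcYY2. The pcCon samples were nearly equal and all pcYY2 samples higher. The log2 difference was 0.27 (SE 0.061, adjusted p = 0.0414), and MSMO1 did not pass without pcCon sample 1 (0.109), 2 (0.126) or 3 (0.109) or without pcYY2 sample 1 (0.0636), 2 (0.0618) or 3 (0.0856). Its adjusted p was also above the threshold with library totals (0.051), with no filter (0.0567) and with limma (0.0503). NSDHL had an FPKM of 11.1, 12.8 and 12.3 in pcCon and 14.5, 15.7 and 14.4 in pcYY2, also without overlap, but its adjusted p of 0.0529 missed the threshold (log2 fold change 0.31, SE 0.0793). HSD17B7 overlapped (0.08, adjusted p = 0.738). The table also holds 2 HSD17B7 pseudogenes with 23.1% as many reads, and reads shared with them cannot be told apart.

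FDFT1, which joins 2 farnesyl pyrophosphates into squalene, and CYP51A1, which removes the methyl group at carbon 14 of lanosterol, showed no overlap either. FDFT1 had an FPKM of 5.17, 6.05 and 5.74 in pcCon and 6.39, 6.71 and 6.97 in pcYY2 (log2 fold change 0.26, adjusted p = 0.068). CYP51A1 had 24.0, 22.5 and 20.5 in pcCon and 27.4, 24.3 and 28.9 in pcYY2 (0.28, adjusted p = 0.0782), and 3 pseudogenes in the table held 7.45% as many reads. Same-strand genes annotated in GENCODE 44 share 68.19% and 67.78% of the exon bases of CYP51A1. They have no row in the deposited counts, and the value of CYP51A1 is uncertain. For SQLE, the squalene epoxidase, pcCon sample 3 (19.8) lay within the pcYY2 samples (20.96, 19.6 and 18.9), while the other pcCon samples had 15.3 and 15.6 (0.25, adjusted p = 0.183). DHCR7, which catalyses the last step to cholesterol in one branch, overlapped (0.21, adjusted p = 0.259). TM7SF2 (0.12, adjusted p = 0.571) and LBR (-0.07, adjusted p = 0.559) were the C14 reductases, and LBR, which is also a protein of the inner nuclear membrane, had 25.5, 25.7 and 25.9 in pcCon and 25.5, 21.5 and 25.8 in pcYY2. For LBR the pcYY2 samples 1 and 3 were at the level of pcCon and sample 2 was lower, and the log2 fold change was 0.0044 without pcYY2 sample 2.

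EBP, the sterol isomerase, and SC5D, the C5 desaturase, varied more within a group than between groups. EBP had an FPKM of 7.19, 3.36 and 3.50 in pcCon and 6.21, 4.42 and 7.08 in pcYY2 (log2 fold change 0.34, SE 0.322, adjusted p = 0.527). SC5D had 5.25, 1.32 and 2.55 in pcCon and 2.86, 3.05 and 5.44 in pcYY2 (0.33, SE 0.487, adjusted p = 0.698). In both genes pcCon sample 1 was the highest of pcCon and pcYY2 sample 3 the highest of pcYY2. SC5D had the largest coefficient of variation of the list in both groups (66.1% and 38.0%), against medians over the list of 6.88% in pcCon and 9.15% in pcYY2 and of 6.35% and 7.54% over all tested genes. A gene annotated in GENCODE 44 on the same strand shares 36.43% of the exon bases of EBP. It has no row in the deposited counts, and reads of the 2 genes cannot be told apart. The sign of SC5D turned without pcCon sample 2 (-0.0353) or pcYY2 sample 3 (-0.0232). Leaving out single samples moved the log2 fold change of EBP between 0.15 and 0.79.

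**Figure D3:**
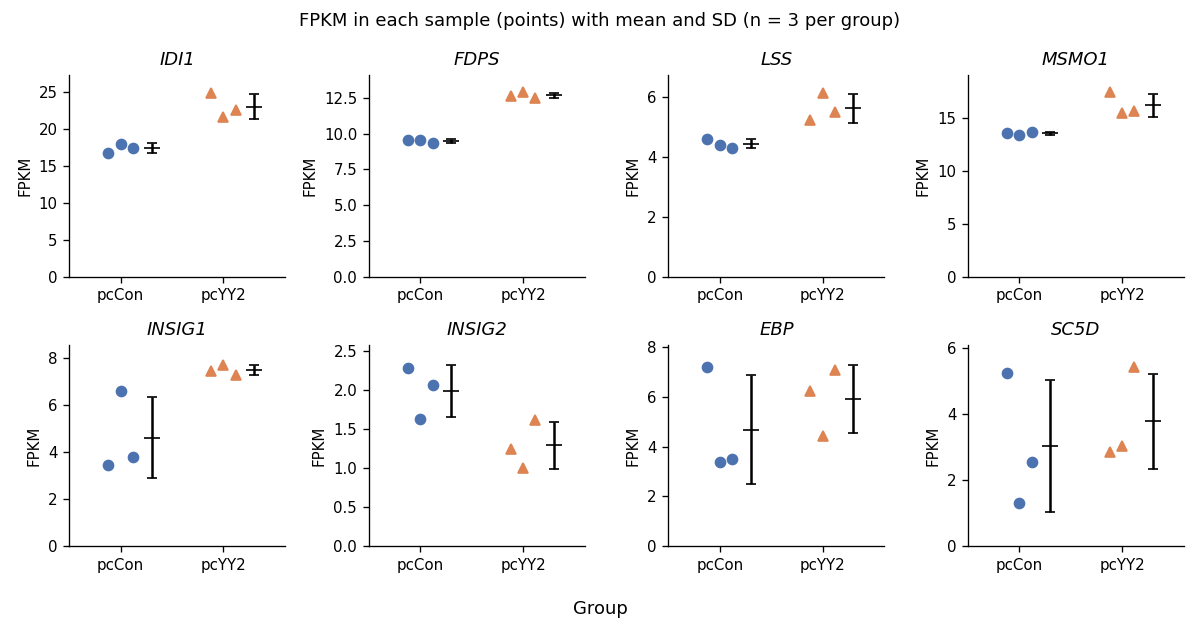
FPKM (y axis, from 0) of 8 genes in each pcCon and pcYY2 sample (coloured points), with the mean and SD beside them (black, n = 3 per group). IDI1, FDPS, LSS and MSMO1, which passed the test, do not overlap between groups, INSIG1 lies higher and INSIG2 lower with pcYY2 without passing it (adjusted p 0.0959 and 0.0951), and EBP and SC5D overlap widely.

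Of SREBP2 and its 4 regulators in the list, no gene passed the test. SREBF2 (ENSG00000198911, chromosome 22 from 41833079 to 41907308) had an FPKM of 17.7, 16.9 and 16.8 in pcCon and 16.8, 18.2 and 17.7 in pcYY2, with a log2 fold change of 0.05 (SE 0.051, adjusted p = 0.571). The groups overlapped. SCAP, the escort of SREBP2, had 7.68, 7.43 and 7.46 in pcCon and 6.34, 7.70 and 7.01 in pcYY2 (-0.08, adjusted p = 0.525). MBTPS1, the Golgi protease, had 14.6, 14.4 and 13.4 in pcCon and 12.5, 11.7 and 13.4 in pcYY2 (-0.16, SE 0.0632, adjusted p = 0.148), with pcYY2 sample 3 at the level of pcCon sample 3.

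INSIG1 and INSIG2, the 2 proteins that retain SCAP, had fold changes of opposite sign, neither of which passed, and INSIG1 had the largest log2 fold change of the list. INSIG1 (ENSG00000186480, chromosome 7 from 155297776 to 155310235), itself a target of SREBPs, had an FPKM of 3.45, 6.59 and 3.82 in pcCon and 7.45, 7.71 and 7.31 in pcYY2. The pcYY2 samples were close together, and pcCon sample 2 stood apart from the other pcCon samples toward them. The log2 difference was 0.71 (SE 0.23, adjusted p = 0.0959), and without pcCon sample 2 it was 1.06 (adjusted p = 0.00878). INSIG1 did not pass in the other 5 fits that left out a sample, with 0.53 (adjusted p = 0.203) without pcCon sample 1, 0.59 (0.222) without pcCon sample 3, and adjusted p from 0.158 to 0.194 without a pcYY2 sample. INSIG2 (ENSG00000125629, chromosome 2 from 118088452 to 118110997) had 2.28, 1.63 and 2.06 in pcCon and 1.25, 1.01 and 1.61 in pcYY2. The lowest pcCon sample and the highest pcYY2 sample nearly touched, and the log2 fold change was -0.62 (SE 0.2, adjusted p = 0.0951). The ratio of INSIG1 to INSIG2 in FPKM was 1.51, 4.04 and 1.85 in pcCon and 5.96, 7.66 and 4.53 in pcYY2, and every pcYY2 sample was above every pcCon sample (exact permutation p = 0.1, two-sided, the smallest the design allows). This pair, like the ratios of TM7SF2 to LBR and of SREBF1 to SREBF2, was chosen after the values were seen, and adjusted over the 3 ratios its exact p was 0.15.

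Of the 4 genes of sterol transport and storage, none passed. STARD4, a carrier of cholesterol between membranes, had an FPKM of 3.41, 3.42 and 3.63 in pcCon and 4.56, 3.74 and 4.20 in pcYY2 (log2 fold change 0.27, adjusted p = 0.0789). NPC2, which hands cholesterol to NPC1 in the lysosome, had 8.79, 9.88 and 10.5 in pcCon and 12.03, 12.2 and 10.8 in pcYY2 (0.28, adjusted p = 0.0833). Neither overlapped between groups. NPC1 had 3.36, 3.42 and 3.21 in pcCon and 3.48, 3.48 and 4.43 in pcYY2, where sample 3 stood above the others (0.20, adjusted p = 0.246). SOAT1, which esterifies cholesterol for storage, had 5.07, 5.29 and 5.33 in pcCon and 5.17, 5.09 and 5.31 in pcYY2 (0.0036, SE 0.0503, adjusted p = 0.973), and its sign turned in 5 of 15 alternative fits.

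The sample ranks varied from gene to gene. The highest sample of its group was pcYY2 sample 1 in 6 genes, sample 2 in 11 and sample 3 in 11, and the lowest of pcCon was sample 1 in 15, sample 2 in 5 and sample 3 in 8 of the 28. Leaving out pcCon sample 1 lowered the median log2 fold change from 0.25 to 0.21.

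Of 57 other genes around the pathway, 50 were tested, 9 rose and 2 fell, whereas over all tested genes 4.52% rose and 4.85% fell. The median log2 difference was 0.10 in these 50 and 0.002 over all tested genes. In the supply of acetyl-CoA 2 of 4 rose. SLC25A1, the mitochondrial citrate carrier, had an FPKM of 16.5, 17.9 and 17.3 in pcCon and 22.3, 23.3 and 22.6 in pcYY2 (log2 fold change 0.41, adjusted p = 0.00918). ACLY, which splits citrate into acetyl-CoA, rose as well (0.22, adjusted p = 0.0278). Among 7 genes of lipoprotein uptake, 5 were tested and 2 rose, the HDL receptor SCARB1 (0.34, adjusted p = 0.0149) and LRP8 (0.23, adjusted p = 0.0462). VLDLR had no read in any sample.

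Among 10 other regulators of SREBPs, SREBF1 rose and RNF145 fell. SREBF1 encodes SREBP1, a factor whose targets include genes of fatty acid synthesis. The FPKM of SREBF1 was 9.84, 10.5 and 9.60 in pcCon and 13.9, 15.2 and 14.6 in pcYY2 (log2 fold change 0.56, SE 0.0579, adjusted p = 0.00531). The ratio of SREBF1 to SREBF2 in FPKM was 0.554, 0.621 and 0.571 in pcCon and 0.827, 0.834 and 0.824 in pcYY2, with no overlap (exact permutation p = 0.1, adjusted 0.15 over the 3 ratios). RNF145, a ubiquitin ligase of the endoplasmic reticulum, fell, with a log2 difference of -0.37 (adjusted p = 0.0466). Of 7 genes of fatty acid and other lipid synthesis under SREBP1, 3 rose and none fell. These were SCD (0.46, adjusted p = 0.00125), FASN (0.24, adjusted p = 0.0235) and LPIN1 (0.77, adjusted p = 0.00314).

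In lysosomal and membrane transport of sterols, 10 of 12 genes were tested, and OSBP, a sterol carrier to the Golgi, rose (log2 fold change 0.21, adjusted p = 0.0313) while the lysosomal membrane protein SCARB2 fell (-0.24, adjusted p = 0.0364). None of 11 genes of the branch to non-sterol isoprenoids passed, with a median of 0.10, among them NUS1 (-0.06, adjusted p = 0.596) and RABGGTB (0.11, adjusted p = 0.478), which had the highest FPKM of that branch averaged over all 6 samples. PDSS1, named after its values were seen, was above RABGGTB in pcCon (mean FPKM 11.07 against 9.81) and below its own pcCon samples in every pcYY2 sample (-0.27, adjusted p = 0.199). None of the 3 tested of 6 genes of LXR and sterol export passed, and those with the highest FPKM over all 6 samples were RXRA (-0.04, adjusted p = 0.729) and RXRB (0.13, adjusted p = 0.539).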

How the data were processed

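RNA-Seq of HCT116 cells transfected with pcCon or pcYY2 was used, 3 samples each. The authors filtered the reads and mapped them to GRCh38 with TopHat, and the submitters' processing notes also name Bowtie2 and HTSeq. The deposited counts are whole reads per gene without normalization. The FPKM deposited by the authors, for which the methods name Cufflinks, is scaled by depth and by a length that is not stated for each gene. Strand use in counting is not given in the sources used here.

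Counts were tested with edgeR 4.0.16 (quasi-likelihood, TMM, R 4.3.3) over genes whose FPKM averaged 1 or more, with Benjamini-Hochberg adjustment over all of them and a threshold of 0.05. A test on log2 FPKM had been kept for the case without raw counts. The standard error is the log2 fold change divided by the root of F. Alternatives were other scaling (RLE, upper quartile, library totals), filters at 0.1 or none, DESeq2 1.42.0, the robust fit, limma 3.58.1 on log2(FPKM + 1), the replicate number as a block, each sample left out, and the unadjusted p. The scripts were tested on simulated data with the same dispersion for every gene. The planted fold changes were larger than those of the called genes of the list, so recovery of changes of that size was not tested. Samples of a group differed by more than counting error, with a chi-square of at least 13.4 per degree of freedom. Intervals were not computed. No floor was needed, since every gene of the list had at least 158 reads per sample.

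The genes and lists were chosen with earlier results of these data known. Named were all genes of the list, YY2, and from each other list the genes that passed and, where fewer than 2 did, up to 2 with the highest mean FPKM over the 6 samples. Overlaps and pseudogenes came from GENCODE 44 and the names in the table, and coordinates of genes are those of the table. Printed stretches were equal to hg38 in 6 of 6.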

Additional observations from a re-analysis of the deposited data

How the results depend on the processing

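The count of 4 genes of the list that rose was 9 with DESeq2, 0 with the replicate block and 14 at an unadjusted p. It was 1 to 3 when a sample was left out. The share of all tested genes that rose, 4.52%, was 5.93%, 0.424% and 14.4% in the same order. Without a sample this share was 1.15% to 3.43%. The count that fell, 0, was 1 with DESeq2 and 2 at an unadjusted p, and 0 in each fit without a sample. Over all tested genes the share that fell, 4.85%, was 6.04% with DESeq2, 14.5% at an unadjusted p and 1.22% to 3.28% without a sample. The median log2 fold change, 0.25, was 0.2057 with limma on log2(FPKM + 1) and between 0.2064 and 0.2683 without a sample. The cause was not tested. DESeq2 called HMGCS1, FDFT1, CYP51A1, NSDHL, INSIG1 and INSIG2 beside the 4 genes, and edgeR's robust fit and limma also called NSDHL. With the replicate block 51 genes rose and 50 fell over all genes. The labels give a shared number and do not say whether samples were paired. Deviations of same-numbered samples correlated at -0.0274, -0.0401 and -0.0302, and those of other pairs at -0.04 to 0.0694. With 3 samples a group, these values cannot decide whether samples were paired. Signs turned for LBR (0.0044) and HSD17B7 (-0.0237) without pcYY2 sample 2, for SC5D (-0.0353 without pcCon sample 2, -0.0232 without pcYY2 sample 3), and for SOAT1 with library totals (-0.0127), upper quartile (-0.0145), limma (-0.0087), without pcCon sample 1 (-0.0227) and without pcYY2 sample 3 (-0.0096). Of 420 values over the 28 genes and 15 alternative fits, 380 kept their sign and side of the threshold, mostly for genes that were not called. The 22 values that lost a call all belonged to the 4 called genes. FDPS passed in 14 of the 15 fits, IDI1 in 11, LSS in 8 and MSMO1 in 5. Without a sample, the log2 fold change ranged from -0.1133 to 0.0044 for LBR, -0.0237 to 0.1699 for HSD17B7, -0.0353 to 0.9805 for SC5D and -0.0227 to 0.0168 for SOAT1. With 3 samples a group, the spread between samples limits what can be called.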
